A study of Mus musculus with 6 samples.

Results

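Transcripts of 10 genes of excitation-contraction coupling and calcium handling were examined in the tibialis anterior, a fast muscle of the front of the lower hind limb, of adult mice. The genes were chosen by name for their roles in calcium release, re-uptake and buffering, and are 10 of the 54393 genes in the table. All 10 were found, and all 10 were among the 16031 genes tested, which had a mean of at least 10 normalized counts. The WT group held 3 muscles, whose titles carry the prefix C57, and the Dock3 KO group held 3 muscles of mice lacking Dock3, an activator of the small GTPase Rac. The strain and sex of the animals, the design of the Dock3 allele and the tissues in which it is deleted are not given in the sources used here, nor is it said whether muscles of a group came from separate animals. P-values therefore refer to these muscles and not to a known number of animals. Those of limma, the test used for single genes, also borrow variance from other genes. They do not measure the spread of a single gene between muscles alone.

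Samples had sums of 23520200 to 33393900 normalized counts, from approximately 21650400 to 32449800 reads. Dock3 itself lay between 118 and 169 normalized counts in WT and between 1.54 and 22.4 in Dock3 KO, with the highest Dock3 KO value in replicate 1. The libraries of Dock3 KO replicates 1 and 2 stood apart. Gm42418 and Lars2 together took 17.9% and 20.3% of their sums, against 3.00% to 3.64% in the other 4 samples. Skeletal muscle markers were high in all 6 muscles, with sums over 10 genes of 1272030 to 1365340 normalized counts in WT and 1274590 to 1434890 in Dock3 KO.

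In skeletal muscle, an action potential entering the transverse tubules is sensed by the voltage-gated channel Cav1.1, which is coupled mechanically to the ryanodine receptor of the sarcoplasmic reticulum and opens it. Calcium stored on calsequestrin then flows into the cytosol and triggers contraction. Relaxation follows when the SERCA pumps return calcium to the reticulum, aided in fast fibres by the cytosolic buffer parvalbumin. Small membrane peptides such as sarcolipin bind SERCA and lower its efficiency. Sarcolipin is typical of slow fibres, of immature muscle and of the heart's atria, and is sparse in fast limb muscle of adult mice.

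Sln, the gene of sarcolipin, fell in Dock3 KO muscle to 13.4% of its WT mean, and was the only member to pass the test. The other 9 genes, among them the pumps Atp2a1 and Atp2a2, the release channel Ryr1 and the voltage sensor Cacna1s, had log2 differences between -0.31 and 0.33 and did not pass. Thus 1 of 10 members was called, 0 higher and 1 lower, where 1.03% of all genes tested were called, 0.443% higher and 0.586% lower. The median log2 difference of the 10 members was -0.03, against -0.01 over all genes tested, and 5 of 10 lay below 0, where 51% of all genes did. Their median absolute log2 difference was 0.26, against 0.20 over all genes. WT and Dock3 KO values did not overlap for 3 of the 10, Sln and Casq1 lower and Atp2a1 higher in Dock3 KO, where 16.2% of all genes tested did not overlap (7.6% higher and 8.65% lower). The values of each muscle are shown in the plot of members relative to the WT mean.

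**Figure D1:**
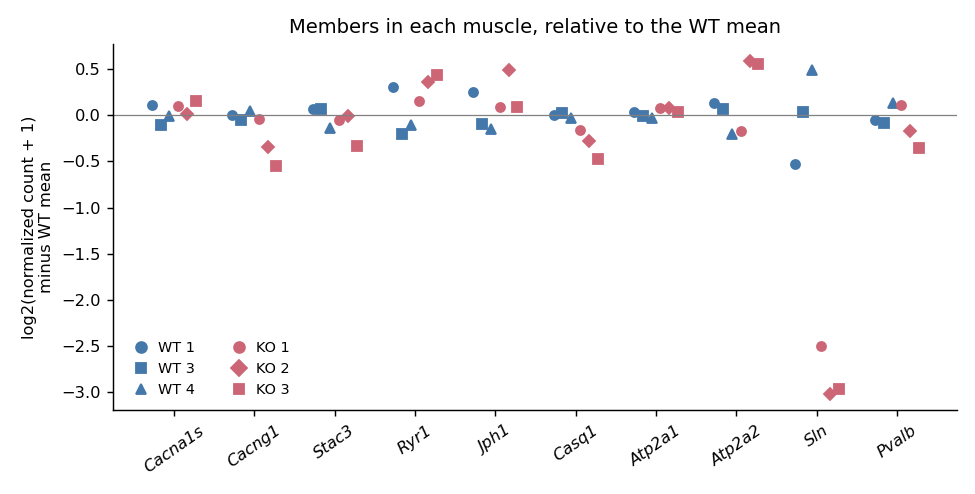
Each point is 1 muscle, plotted as log2(normalized count + 1) minus the WT mean of that gene. WT is blue, Dock3 KO is red, and shapes mark replicate numbers, which are not known to pair animals. Only Sln leaves the band around 0 in Dock3 KO, with normalized counts of 35.03 to 50.4 against 202 to 409 in WT.

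The reading frames of Sln and of 2 related regulators of SERCA are printed because Sln was the member called and the other two encode peptides that act on the same pump. Sln (ENSMUSG00000042045) spans 53850164 to 53854560 of chromosome 9 on the plus strand (GENCODE M21, build GRCm38), overlaps no other annotated gene, and has its whole reading frame in 1 exon. Pln encodes phospholamban, best known as the SERCA inhibitor of heart and slow muscle, and Mrln encodes myoregulin, a SERCA inhibitor of skeletal muscle. Both lie on the plus strand of chromosome 10, Pln, which overlaps Cep85l and Gm47644 on the other strand, from 53337667 to 53345987 and Mrln from 70204664 to 70219711. The frames hold 96, 159 and 141 bases, which code for 31, 52 and 46 residues before the stop. Start and stop codons are in capitals, and the coordinates of the frames are chr9:53853473-53853568, chr10:53343864-53344022 and chr10:70219496-70219636, all on the plus strand.
Sln: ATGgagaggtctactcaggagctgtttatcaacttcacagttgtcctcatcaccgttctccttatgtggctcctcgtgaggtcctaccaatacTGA
Pln: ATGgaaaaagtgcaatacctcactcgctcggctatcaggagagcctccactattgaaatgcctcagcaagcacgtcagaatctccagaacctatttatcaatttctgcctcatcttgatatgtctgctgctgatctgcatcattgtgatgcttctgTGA
Mrln: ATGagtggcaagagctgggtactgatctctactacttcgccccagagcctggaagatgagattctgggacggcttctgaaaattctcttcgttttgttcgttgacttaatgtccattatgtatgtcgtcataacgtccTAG

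In the WT muscles, numbered 1, 3 and 4, Sln had 202, 297 and 409 normalized counts. In the Dock3 KO muscles, numbered 1, 2 and 3, it had 50.4, 35.03 and 36.4. Every Dock3 KO muscle lay below every WT muscle. All values below are given in this order of muscles. With the most frequent low value of each library taken as 1 read, Sln had roughly 227 to 496 reads in WT and 23 to 47 in Dock3 KO. Most low values were not whole multiples of that unit. The WT mean was 302 ± 104 and the Dock3 KO mean 40.6 ± 8.50 (SD, n = 3 each). On the log2(value + 1) scale Sln differed by -2.83 (standard error 0.289, 95% interval -3.47 to -2.18), and its limma p adjusted over all genes was 0.00094. By exact permutation, two-sided, p was 0.1, the smallest that 3 muscles against 3 can give. Sln ranked 37th of 16031 genes by p, and among the 53 protein-coding genes called lower it had the 13th largest decrease.

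The call on Sln held when any 1 muscle was left out. Leaving out each muscle in turn gave log2 differences of -3.09 to -2.58 and adjusted p-values of 0.00113 to 0.00854 (limma). Dock3 KO replicate 3, whose share of Gm42418 and Lars2 resembled that of WT, stood at 12.0% of the WT mean, beside 16.7% and 11.6% in replicates 1 and 2. With replicate 3 as the only Dock3 KO sample, its spread assumed to be that of WT, the difference was -2.96 with an unadjusted p of 0.000203 and an adjusted p of 0.0534 (limma), so the call was lost there. In bulk muscle, fewer cells or fibres carrying Sln and less Sln RNA in each cannot be told apart.

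Markers of tissues and fibres known to carry Sln were read beside it. Slow fibre markers, 8 genes, summed to 1045 to 1512 normalized counts in WT and 938 to 1653 in Dock3 KO, so the groups overlapped, and 0 of the 8 were called by limma (0 also at an unadjusted p under 0.05). Myh7, the slow myosin heavy chain, had 16.3, 69.7 and 83.2 normalized counts in WT, against 18.4, 323 and 91.0. Myl2, a slow myosin light chain, was at 199, 151 and 187 against 102, 257 and 189. Tnnt1, slow troponin T, was at 30.2, 82.1 and 102 against 51.3, 57.3 and 62.9. In none of these 3 slow genes did the genotypes separate.

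Of 6 heart markers, 3 were high enough to test and 0 were called by limma (1 at an unadjusted p under 0.05). Nppb was at 0 in every muscle and Nppa never exceeded 1.78, and the list summed to 149 to 241 in WT and 162 to 190 in Dock3 KO. The 5 markers of regenerating or immature fibres had sums of 732 to 1122 in WT and 569 to 707 in Dock3 KO, without overlap. Myod1 made up most of each sum, so the separation of the sums cannot be read as one of the whole list. Of the 5, 4 had log2 differences below 0 and Myh8 was at 0.13. The values of 2, Myod1 and Chrng, did not overlap, where 16.2% of all genes tested did not, and those of Myh3, Myh8 and Myog overlapped. Limma called 0 of the 5 (2 at an unadjusted p under 0.05). Chrng of that list was at 0 in Dock3 KO replicates 1 and 2. The sums of 5 fibroblast markers also did not overlap, at 31490 to 33345 in WT and 39645 to 45078 in Dock3 KO. Of the 5, Col1a1 and Col3a1, chains of fibrillar collagen, were called higher (log2 differences 1.38 and 0.87, limma adjusted p 0.0228 and 0.0168), while Dcn, the most abundant, was at -0.28 with overlap. These calls were not stable: Col1a1 passed in 12 and Col3a1 in 11 of 20 alternatives. Col1a1 was lost without Dock3 KO replicate 1, 2 or 3 (limma adjusted p 0.0559, 0.0856 and 0.0915), and Col3a1 without WT replicate 4 or Dock3 KO replicate 1 or 2 (limma adjusted p 0.0645, 0.0558 and 0.0716). The sums of 5 macrophage markers separated narrowly in the other direction, at 1950 to 2276 in WT and 1372 to 1909 in Dock3 KO. Of these 5 genes only C1qa did not overlap (20%, beside 16.2% of all genes tested). Limma called 0 of them, and 0 had an unadjusted p under 0.05. The part of these lists in the Sln result was not tested. The sums of the smooth muscle, endothelial, adipocyte, nerve, erythrocyte and fast fibre lists overlapped between genotypes, as did that of the skeletal muscle list, and limma called none of their genes (1 adipocyte and 1 nerve gene had an unadjusted p under 0.05).

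The other SERCA peptides were then compared with Sln. Pln was at 48.7, 57.04 and 40.9 normalized counts in WT and 31.3, 33.1 and 37.5 in Dock3 KO. These values did not overlap, but the log2 difference of -0.50 (95% interval -1.17 to 0.17) did not pass (limma adjusted p 0.628). Mrln was at 579, 490 and 462 in WT and 922, 616 and 513 in Dock3 KO. Its values overlapped, with Dock3 KO replicate 1 highest, and its log2 difference was 0.38 (95% interval -0.09 to 0.86; limma adjusted p 0.602). 1810037I17Rik, the gene of another-regulin, was at 312, 344 and 393 against 334, 271 and 272, a log2 difference of -0.26 (limma adjusted p 0.669). Smim6 was listed at 0 in all 6 muscles, and Gm34302 lay between 0 and 1.55, so neither was tested.

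**Figure D2:**
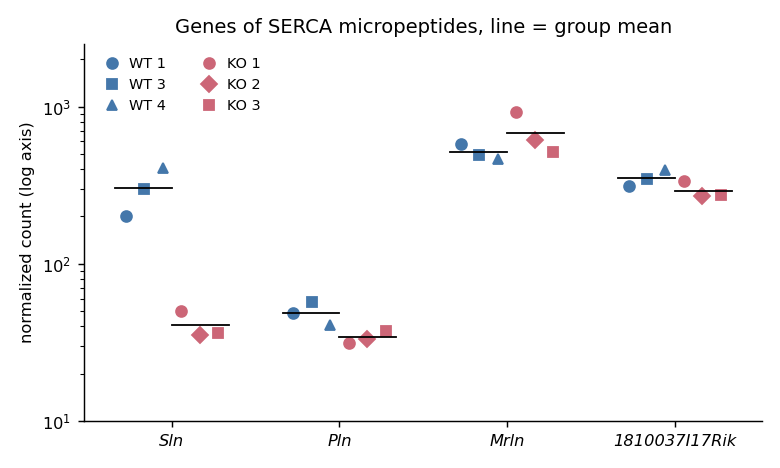
Normalized counts (log axis) of 4 SERCA micropeptide genes in each muscle, with the group mean as a line. Sln has Dock3 KO muscles at 35.03 to 50.4 and WT muscles at 202 to 409, while the Mrln and 1810037I17Rik values overlap and those of Pln lie side by side, at 31.3 to 37.5 in Dock3 KO and 40.9 to 57.04 in WT.

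The pumps on which these peptides act showed no change past the threshold. Atp2a1 (chromosome 7, 126445858 to 126463108, minus strand) encodes SERCA1, the pump of fast fibres, and overlaps Rabep2 on the other strand. It was at 411730, 400382 and 391923 normalized counts in WT and 424171, 425270 and 412301 in Dock3 KO. The genotypes did not overlap, yet the lowest Dock3 KO value was barely above the highest WT value. The log2 difference was 0.07 (95% interval -0.44 to 0.57, limma adjusted p 0.960), and its sign changed when all samples were rescaled to the same total. The muscles' own SDs were 2.48% of the WT mean and 1.71% of the Dock3 KO mean. The limma interval also draws on the variance of other genes.

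Atp2a2 (chromosome 5, 122453513 to 122502225, minus strand) encodes SERCA2, the pump of slow fibres and heart, and overlaps 3 annotated genes, 2 of them on its strand. It was at 798, 762 and 629 in WT and 647, 1095 and 1066 in Dock3 KO. Dock3 KO replicates 2 and 3 were above every WT muscle and replicate 1 was within the WT range. The log2 difference was 0.33 (95% interval -0.14 to 0.79; limma adjusted p 0.660). The third pump gene, Atp2a3, was at 267, 388 and 311 in WT and 252, 226 and 233 in Dock3 KO, a log2 difference of -0.42 that did not pass (limma adjusted p 0.445).

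The store was represented by Casq1 (chromosome 1, 172209894 to 172219868, minus strand), whose product calsequestrin 1 holds calcium in the lumen of the reticulum in fast fibres. Casq1 was at 38116, 38609 and 37150 normalized counts in WT and 34077, 31334 and 27351 in Dock3 KO. All 3 Dock3 KO muscles were below the WT range. Means were 37958 ± 742 and 30920 ± 3382 (SD, n = 3 each), a log2 difference of -0.30 (95% interval -0.62 to 0.02) that did not pass (unadjusted p 0.0644; limma adjusted p 0.511). Casq2, the slow and cardiac calsequestrin, was at 198, 377 and 285 in WT and 306, 295 and 303 in Dock3 KO, with the Dock3 KO values inside the WT range and a log2 difference of 0.12 (limma adjusted p 0.918) whose sign turned when the samples were rescaled to one total and without WT replicate 1.

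For calcium release, Ryr1 (chromosome 7, 29003344 to 29125179, minus strand), the ryanodine receptor of skeletal muscle, was at 50393, 35621 and 38023 normalized counts in WT and 45378, 52309 and 55172 in Dock3 KO. WT replicate 1 lay among the Dock3 KO muscles, and the groups overlapped. The log2 difference was 0.31 (95% interval -0.08 to 0.71; limma adjusted p 0.610). Ryr1 overlaps 4 annotated genes, 1 of them on its strand.

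Jph1 (chromosome 1, 16964560 to 17097889, minus strand) encodes junctophilin 1, which ties the reticulum to the transverse tubule. It was at 6999, 5507 and 5309 in WT and 6257, 8310 and 6295 in Dock3 KO. Dock3 KO replicate 2 was highest and the other 2 Dock3 KO muscles were within the WT range. Its log2 difference was 0.23 (95% interval -0.13 to 0.58; limma adjusted p 0.707), below 0 when rescaled to one total. Jph2, the other junctophilin of striated muscle, was at 8106, 8509 and 8097 in WT and 8029, 8407 and 7202 in Dock3 KO, a log2 difference of -0.07 (limma adjusted p 0.915).

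Within the voltage sensor complex, Cacna1s (chromosome 1, 136052750 to 136119822, plus strand), the pore and voltage-sensing subunit of Cav1.1, was at 20863, 17996 and 19228 normalized counts in WT and 20665, 19491 and 21504 in Dock3 KO. The groups overlapped, and the log2 difference was 0.09 (95% interval -0.20 to 0.38; limma adjusted p 0.890), with a sign that changed under rescaling to one total. Cacna1s overlaps 2 annotated genes, 1 of them on its strand.

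Cacng1 (chromosome 11, 107703218 to 107716522, minus strand) encodes the gamma subunit of the same channel. It was at 3458, 3318 and 3558 in WT and 3360, 2717 and 2358 in Dock3 KO. Replicates 2 and 3 of Dock3 KO were below every WT muscle and replicate 1 was within the WT range. The log2 difference was -0.31 (95% interval -0.63 to 0.02), with an unadjusted p of 0.0602 (limma adjusted p 0.505).

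Stac3 (chromosome 10, 127501686 to 127508823, plus strand) encodes an adaptor that the sensor needs for its traffic and coupling. It was at 2435, 2428 and 2113 in WT and 2243, 2304 and 1837 in Dock3 KO. The groups overlapped, with Dock3 KO replicate 3 lowest, and the log2 difference was -0.13 (95% interval -0.43 to 0.17; limma adjusted p 0.814).

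Pvalb (chromosome 15, 78191114 to 78206400, minus strand), the gene of parvalbumin, was at 162122, 158814 and 183930 normalized counts in WT and 180793, 149172 and 131119 in Dock3 KO. Dock3 KO replicate 1 was near the WT maximum and replicates 2 and 3 were below the WT range. The log2 difference was -0.14 (95% interval -0.59 to 0.31; limma adjusted p 0.884). Cacng1, Stac3, Casq1 and Pvalb each had their lowest value of all 6 muscles in Dock3 KO replicate 3, which was also where Ryr1 and Cacna1s were highest.

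**Figure D3:**
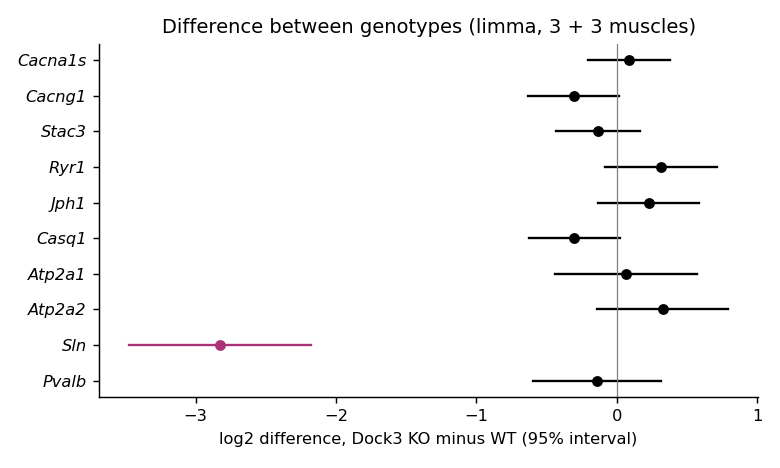
Log2 difference of each member, Dock3 KO minus WT, as fitted by limma, with its 95% interval; the gene with an adjusted p under 0.05 is in purple. The interval of Sln runs from -3.47 to -2.18 and the intervals of the other 9 genes include 0.

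Ratios taken within 1 muscle depend little on the scaling of its library, though not exactly so, since 1 was added to both values before the log2. In all, 7 ratios were compared by exact two-sided permutation tests, for which p = 0.1 is the lowest value possible. All ratios and their differences are given as log2 values. The log2 ratio of Sln to Atp2a1 was -10.99, -10.39 and -9.90 in WT and -13.01, -13.53 and -13.43 in Dock3 KO. All Dock3 KO muscles were below all WT muscles, and the difference of -2.89 had an exact permutation p of 0.1 (0.4 after Benjamini-Hochberg adjustment over the 7). This was the only ratio whose groups did not overlap.

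The log2 ratio of the fast to the slow pump, Atp2a1 to Atp2a2, was 9.01, 9.03 and 9.28 in WT and 9.35, 8.60 and 8.59 in Dock3 KO. Dock3 KO replicate 1 lay above WT and the others below (difference -0.26, exact permutation p = 0.4). Ryr1 to Cacna1s, the channel against its sensor, was 1.27, 0.99 and 0.98 in WT and 1.13, 1.42 and 1.36 in Dock3 KO (difference 0.23, exact permutation p = 0.2). For Casq1 to Casq2, Stac3 to Cacna1s, Pvalb to Atp2a1 and Jph1 to Jph2 the differences were -0.42, -0.22, -0.21 and 0.29, with exact permutation p-values of 0.3, 0.4, 0.3 and 0.2. All 7 adjusted values were 0.4.

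Levels of different genes were compared per kilobase of merged exon length. In WT, Pvalb stood highest at 161661 ± 13109 normalized counts per kilobase (SD, n = 3), followed by Atp2a1 at 115429 ± 2858 and Casq1 at 19456 ± 380. Cacna1s at 2956 ± 220 and Cacng1 at 2758 ± 96.5 came next and did not separate, since their ranges overlapped. Ryr1 at 1893 ± 363, Jph1 at 1188 ± 185, Stac3 at 914 ± 72.2, Sln at 229 ± 78.6 and Atp2a2 at 120.0 ± 14.7 completed the order, each outside the range of its neighbour.

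In Dock3 KO the lowest places were exchanged, with Atp2a2 at 154 ± 41.2 and Sln at 30.8 ± 6.45 normalized counts per kilobase (SD, n = 3 each). Ryr1 at 2333 ± 231 and Cacng1 at 2251 ± 406 changed places as well, but their ranges overlapped. Lengths of the longest protein-coding transcripts, used in place of merged exons, raised the level of Ryr1 to 2692 in WT and 3318 in Dock3 KO. This put Ryr1 above Cacna1s, at 3288, in Dock3 KO. The same lengths put Stac3, at 1299, above Jph1, at 1235, in WT. In both pairs the ranges overlapped. With either length Sln was above Atp2a2 in WT and below it, last of the 10, in Dock3 KO.

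**Figure D4:**
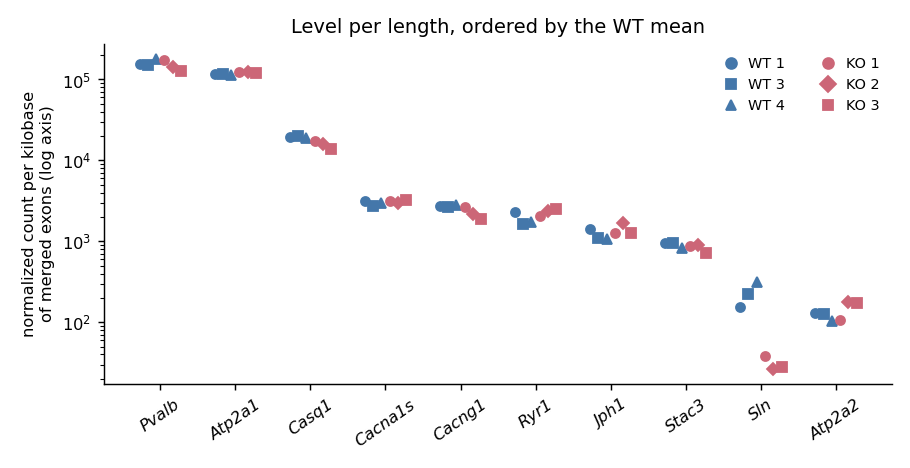
Normalized counts per kilobase of merged exons (log axis) in each muscle, with genes ordered by the WT mean. The WT means run from 161661 for Pvalb to 120.0 for Atp2a2, and Sln is lowest in Dock3 KO at 30.8.

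RefSeq promoter windows (GRCm38.p6, 250 bases before to 50 after a start) were found for 5 of the 10 members, with 6 windows in all. The 250 upstream bases of the pair with the highest level per kilobase, Atp2a1 (chr7:126463074-126463323, minus strand) and Pvalb (chr15:78206401-78206650, minus strand), are printed to show what precedes them. Capitals mark matches to motifs known from muscle promoters, searched on both strands.
Atp2a1: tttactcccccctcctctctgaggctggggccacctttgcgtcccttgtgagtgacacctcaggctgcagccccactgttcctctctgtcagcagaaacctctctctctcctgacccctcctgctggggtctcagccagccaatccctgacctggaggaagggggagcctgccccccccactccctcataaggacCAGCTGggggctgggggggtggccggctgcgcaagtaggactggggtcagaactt
Pvalb: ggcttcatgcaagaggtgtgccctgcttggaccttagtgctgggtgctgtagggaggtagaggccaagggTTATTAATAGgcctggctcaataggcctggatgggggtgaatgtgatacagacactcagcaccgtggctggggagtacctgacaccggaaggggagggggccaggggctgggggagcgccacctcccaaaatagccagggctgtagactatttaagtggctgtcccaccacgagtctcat
Atp2a1 had 1 match to the E-box CAGCTG, beginning 55 bases before the start, and Pvalb had 1 match to the MEF2 box, beginning 180 bases before it. Across all 32851 windows, 16.3% held CAGCTG and 1.86% held a MEF2 box. Cacna1s and Casq1 each held 1 CAGCTG, and Cacna1s also held 1 CATTCC, found in 14.7% of windows. The bases after the start of the Casq1 window did not match the beginning of a GENCODE M21 transcript of that gene. The Ryr1 window and the other Pvalb window held no match to the 5 motifs searched, which also included the CArG box (1.63% of windows) and TATAAA on the gene's strand (8.32%). These are matches of letters and not measured binding sites.

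Beyond the members, 84 other genes of calcium handling were read from the same test, in 7 lists, and 78 of them were tested. None was called by limma, and 12 of the 78 (15.4%) had an unadjusted p under 0.05, where 10.5% of all genes tested did. The groups did not overlap for 20 (25.6%), 5 higher and 15 lower in Dock3 KO, beside 16.2% of all genes (7.6% higher and 8.65% lower). Their median log2 difference was -0.05, against -0.01 over all genes tested, and 49 of 78 lay below 0, where 51% of all genes did. In the release and triad list, 2 of 20 did not overlap. For the SERCA list the count was 2 of 4, for cytosolic calcium binding 1 of 5, for store-operated entry and extrusion 4 of 13, for mitochondrial uptake 2 of 9, for membrane excitability 3 of 11 and for calcium-dependent signalling 6 of 16, 2 of them higher and 4 lower.

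The 10 of these genes with the smallest p among those without overlap are named, and none passed the threshold. Slc8b1, the mitochondrial sodium-calcium exchanger, was at 288, 240 and 237 normalized counts in WT and 122, 102 and 164 in Dock3 KO, a log2 difference of -0.996 (limma adjusted p 0.0783). Rcan2, a regulator of calcineurin, was at 1238, 976 and 1639 against 690, 639 and 860, a difference of -0.79 (limma adjusted p 0.134). In both genes all 3 Dock3 KO muscles lay below the WT range.

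Camk2b, a subunit of calcium/calmodulin-dependent kinase II, was at 1643, 1525 and 1612 in WT and 2443, 1953 and 2299 in Dock3 KO, a log2 difference of 0.48. Camk2d, another subunit of that kinase, had the opposite sign, with 1259, 1370 and 1244 against 926, 915 and 1072 and a difference of -0.41. Their limma adjusted p-values were 0.163 and 0.244. Ppp3cb, a catalytic subunit of calcineurin, had a difference of 0.37 (means 3556 ± 151 and 4587 ± 170, SD, n = 3 each; limma adjusted p 0.241). Kcnc4, a voltage-gated potassium channel, Cacnb1, the beta subunit of Cav1.1, S100a1, a calcium-binding modulator of Ryr1, and Stim2, a sensor of store calcium, had log2 differences of -0.44, -0.35, -0.40 and -0.35, with limma adjusted p-values of 0.183 to 0.390. Atp2a3, described above, completes the 10.

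**Figure D5:**
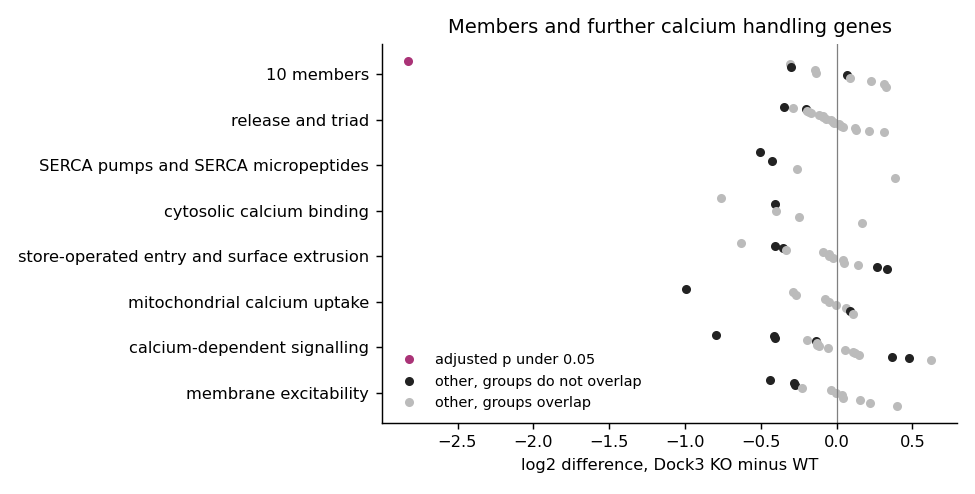
Log2 difference, Dock3 KO minus WT, of the 10 members and of the 78 further calcium handling genes tested, by list; purple marks an adjusted p under 0.05, black marks groups that do not overlap. Sln at -2.83 stands alone to the left, and the further genes lie between -0.996 and 0.63.

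For each member, the 2 protein-coding genes with the most similar profile were taken from 9539 genes with a mean of at least 100, by Pearson's r of log2 values over the 6 muscles. They are the extremes of many correlations over few muscles and are given as a description. For Sln these were Trex1 (r = 0.995) and Sema4b (r = 0.991). Trex1 was at 194, 205 and 226 normalized counts in WT and 135, 131 and 134 in Dock3 KO, and Sema4b at 123, 127 and 130 against 83.1, 77.4 and 80.5. Both were chosen for their likeness to Sln, so their separating the genotypes as Sln did is no further result. Their log2 differences of -0.64 and -0.65 did not pass (limma adjusted p 0.180 and 0.247). In all, 165 candidates had an r above 0.9 with Sln.

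For Casq1 the closest were Ankrd46 and Mrps5, for Cacng1 Prmt1 and Slc35e4, for Ryr1 Ccser2 and Aasdh, and for Atp2a2 Setd5 and Pcsk7. For Jph1 they were Pank3 and Myh4, the fast IIb myosin heavy chain, for Atp2a1 Ppp6r2 and Tnc, for Cacna1s Mmab and Morc2a, for Stac3 Rap2b and Fzd9, and for Pvalb Tprkb and Akip1. These r values lay between 0.977 and 0.998. Among the members themselves, the highest r over the 6 muscles was 0.94, between Cacng1 and Casq1, and the lowest was -0.92, between Atp2a2 and Pvalb.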

How the data were processed

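RNA was measured in 3 WT and 3 Dock3 KO muscles. Per the labels' protocols, libraries kept strand and came from total RNA after ribosomal depletion, with paired-end reads. The authors deposited 1 table of normalized counts, treated here as a signal per gene, since values are not whole and sums differ. The submitters' processing notes name Trim Galore 0.4.5, Salmon 0.12.0, DESeq2 1.22.1 and R 3.5.3, and the builds mm10 and GRCm38, with no roles. The scaling, the annotation and the use of strand in counting are not given in the sources used here. A fold change depends on the scaling, and values of overlapping genes can share reads.

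All 54393 identifiers matched GENCODE M21 (GRCm38), which gave symbols, positions and lengths. The most frequent low value of a library, taken as 1 read, was 0.775 to 1.52 normalized counts, and 15.2% to 26.0% of low values were whole multiples of it (within 0.01), so whole reads were not recovered and no counting interval is given. Values were compared as log2(normalized count + 1), a scale that understates changes of low genes, for genes with a mean of at least 10. The test was limma 3.58.1 in R 4.3.3 (trended prior variance, no covariates). Its code was run on simulated data with independent noise. That run does not show how limma fares with libraries that differ as these do. Benjamini-Hochberg adjustment ran over all 16031 genes and the threshold was 0.05. Other values were computed in Python 3.11.15 with pandas 2.3.3, numpy 2.4.6 and scipy 1.17.1, and plotted with matplotlib 3.10.9.

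The members, lists and tests were chosen with earlier results of these data known. Named genes are the members, the calcium genes past the threshold, the 10 with the smallest p without overlap, the ratio partners, every SERCA micropeptide gene, marker genes past the threshold with Myh7, Myl2 and Tnnt1, and the 2 profiles closest to each member. Chrng, Nppa, Nppb and the genes of the last section outside this rule were chosen after their values were seen. The alternatives were other pseudocounts, filters, scalings, prior variances, a covariate, a replicate block and the removal of samples.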

Additional observations from a re-analysis of the deposited data

How the results depend on the processing

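Sln stayed below 0 in all 20 alternatives, between -3.10 and -2.49, and past the threshold in 19 of them (limma adjusted p 3.48e-05 to 0.0534). The exception was the fit without Dock3 KO replicates 1 and 2 together, with 0 members called. The other 9 members passed in none of the 20. No further calcium gene was called in any. The 165 genes called overall became 104 with a prior variance without trend, 104 with protein-coding genes only, 57 with log2 Gm42418 as a covariate, 56 without Dock3 KO replicates 1 and 2 together, and 100 to 159 when single samples were left out, lowest without WT replicate 4 and at 102 without Dock3 KO replicate 2. Rescaling to the same total shifted the median of all genes to -0.28 and the share of called genes that were higher to 23.2%, from 43.0%; without Gm42418 and Lars2 in the total they were -0.11 and 32.1%, and the covariate, the prior without trend and the fit without both samples gave 29.8%, 32.7% and 16.1%. Rescaled to the same total, Cacna1s was at -0.19, Jph1 at -0.050, Atp2a1 at -0.21 and Casq2 at -0.15, and without Gm42418 and Lars2 in that total Cacna1s was at -0.016 and Atp2a1 at -0.035. With the Gm42418 covariate Mrln was at -0.033, Myl2 at 0.055 and Tnnt1 at 0.084, and without Dock3 KO replicates 1 and 2 together Myl2 was at 0.085. Over single samples left out, Casq2 ranged from -0.12 to 0.34, Myh7 from -0.15 to 1.88, Myl2 from -0.36 to 0.31 and Tnnt1 from -0.68 to 0.19. The cause of these moves was not tested.

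With the replicate block, 127 genes were called, Sln stood at -2.49 and Tnnt1 at 0.18. Only replicates 1 and 3 of each genotype inform the difference in that fit, since the other muscles share their number with none. Numbers 1 and 3 are shared by both genotypes, but nothing says that they pair animals, and the correlation of same-numbered samples' deviations was 0.065 and 0.0066. Tests on whole reads were not run, since whole reads were not recovered. The ratios kept their sign in all 9 alternatives each. The Sln values in Dock3 KO rest on few reads, roughly 23 to 47, although replicate 3 had the largest estimated depth, at approximately 32449800 reads.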

Other observations

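Single genes known from immature fibres, some chosen after their values were seen, had the following values, in the same order of muscles. Myod1, a myogenic transcription factor, was at 516, 717 and 707 normalized counts in WT and 401, 461 and 462 in Dock3 KO, a log2 difference of -0.54 that did not pass (limma adjusted p 0.249). Chrng, the fetal subunit of the acetylcholine receptor, was at 8.58, 7.26 and 63.6 in WT, against 0, 0 and 6.19 in Dock3 KO. These values are near the floor apart from WT replicate 4, and Chrng did not pass (limma adjusted p 0.327). Tnnt2, the cardiac troponin T that immature skeletal fibres also express, was at 57.9, 55.2 and 71.8 in WT and 39.5, 24.7 and 29.0 in Dock3 KO, a log2 difference of -0.98 (limma adjusted p 0.254). Tnnt2 was taken from the heart list, where Myh6 and Ryr2, the others tested, lay the other way, at 0.44 and 0.66 with overlap. In Myod1, Chrng and Tnnt2, 3 genes picked by their values, the genotypes did not overlap, as in 16.2% of all genes tested. Myog was at 47.0, 60.8 and 100.2 in WT and 31.8, 59.8 and 61.3 in Dock3 KO, with overlap, and embryonic Myh3 was at 65.9, 72.3 and 160.2 against 47.5, 57.7 and 90.1, with overlap. Perinatal Myh8 lay the other way, at 94.4, 73.5 and 90.6 in WT and 88.6, 107.1 and 87.6 in Dock3 KO, with overlap and a log2 difference of 0.13 (limma adjusted p 0.910).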
